A study of Homo sapiens with 6 samples.

Results

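CRABP1 and 8 other genes that take up, make, bind, break down or sense retinoic acid were followed in human forebrain neuron progenitor cells at day 26 of differentiation. The 9 genes were CRABP1, CRABP2, STRA6, CYP26B1, ALDH1A3, RARA, RARB, RARG and RXRA, 9 of the 59151 genes in the expression table. They were chosen by gene symbol and from measured values, since CRABP1 had been selected on its difference between knockdown and control cells. For that reason each difference of these genes from the control is given as a description without a test, and only the difference between both knockdown hairpins was tested. That contrast sets no control library against another group, but the spread in its test was estimated from all 6 libraries, scramble included.

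All cells derived from the widely used human embryonic stem cell line H9, so every library stands for 1 genetic background. The groups were circRTN4(2,3) knockdown with shRNA1, circRTN4(2,3) knockdown with shRNA2, and a scramble control in cells labelled wild type, with 2 libraries in each group. circRTN4(2,3) is a circular RNA spliced from the gene RTN4, and the hairpins are short RNAs directed against it. The libraries were made from total RNA depleted of ribosomal RNA and were meant for a study of what the circular RNA does in these cells. The labels do not say whether replicates were separate cultures, so the errors below measure the spread between libraries, which may be technical. How far the hairpins depleted circRTN4(2,3) was not analysed here.

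Retinoic acid is made from vitamin A inside the cell. Retinol enters through the receptor STRA6, retinol dehydrogenases turn it into retinal, and ALDH1A enzymes oxidise retinal to retinoic acid. The acid is carried in the cytoplasm by CRABP proteins, is broken down by CYP26 enzymes, and acts in the nucleus through pairs of a retinoic acid receptor (RARA, RARB or RARG) and a retinoid X receptor such as RXRA. In the embryo it patterns the hindbrain, the spinal cord and the eye, while CYP26 enzymes keep it low in the anterior neural plate.

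The start regions of the genes with the lowest levels in knockdown cells relative to scramble are shown first, with those of the promoters that hold a retinoic acid response element. Sequences are from RefSeq, build GRCh38.p14, plus strand as the genes run, and end at the base before the annotated start of transcription. In the CRABP1 and ALDH1A3 windows capitals mark the GC box GGGCGG on either strand, the site of the transcription factor SP1, common in promoters.
CRABP1, chr15:78340103-78340352: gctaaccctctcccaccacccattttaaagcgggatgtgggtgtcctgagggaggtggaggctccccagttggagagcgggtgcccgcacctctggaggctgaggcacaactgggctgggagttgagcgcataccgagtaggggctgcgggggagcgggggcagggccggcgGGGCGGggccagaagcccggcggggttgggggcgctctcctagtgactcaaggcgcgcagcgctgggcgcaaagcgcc
ALDH1A3, chr15:100879581-100879830: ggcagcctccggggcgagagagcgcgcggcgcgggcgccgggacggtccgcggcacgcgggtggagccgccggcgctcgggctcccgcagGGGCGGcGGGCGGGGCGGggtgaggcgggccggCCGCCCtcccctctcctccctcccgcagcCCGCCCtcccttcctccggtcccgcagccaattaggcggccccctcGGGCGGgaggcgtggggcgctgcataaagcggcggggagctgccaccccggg
The CRABP1 window held 1 GC box, 78 to 73 bases before the start, and 70% of its bases were G or C. The ALDH1A3 window held 6 GC boxes, of which a neighbouring pair shares 1 base, and 82.4% of its bases were G or C. Of all 35116 promoters of 300 bases in the reference table, 45% held at least 1 GC box and 5.14% held 5 or more.

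In the next windows capitals mark a DR5 element, a direct repeat of the nuclear receptor hexamer with a spacer of 5 bases, the classical response element of retinoic acid receptors.
RARB, chr3:25428143-25428262: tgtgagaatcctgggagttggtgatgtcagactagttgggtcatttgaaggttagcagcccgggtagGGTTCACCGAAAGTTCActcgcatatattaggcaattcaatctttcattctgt
CYP26A1, chr10:93073773-93073892: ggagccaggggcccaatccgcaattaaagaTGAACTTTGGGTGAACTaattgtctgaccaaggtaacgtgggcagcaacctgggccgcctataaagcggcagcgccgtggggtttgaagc
The search covered both strands of 300 bases, from 250 before to 50 after each start. A DR5 lay 53 to 37 bases before 1 start of RARB, and on the opposite strand 90 to 74 bases before that of CYP26A1, a retinoic acid hydroxylase that is not among the 9 genes. It was in 0.0883% of all promoters, in 1 of the 19 promoters of the 9 genes, and in those of 2 of the 64 retinoid genes with a promoter in the table. No DR5 was found in the CRABP1, ALDH1A3, CRABP2, STRA6, RARA, RARG, CYP26B1 or RXRA windows, which says only that these letters are not in them.

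CRABP1 was lower with both hairpins than in scramble, and it was the most abundant of the 9 genes in every group. It encodes a cytoplasmic retinoic acid binding protein and lies on chromosome 15 at 78340353 to 78348225 (GRCh38.p14). Its level was 3.67 and 3.69 FPKM (fragments scaled to gene length and library total) with shRNA1, 3.72 and 3.42 FPKM with shRNA2, and 19.4 and 27.0 FPKM in scramble. Each knockdown library was lower than either scramble library, and the hairpin groups overlapped each other. The level averaged 3.63 ± 0.140 FPKM in knockdown (SD, n = 4) and 23.2 ± 5.34 FPKM in scramble (SD, n = 2). Knockdown cells held 15.6% of the scramble mean, a 6.40-fold lower level.

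On the scale of log2(FPKM + 1), on which every difference below is given unless a pseudocount of 0.1 is named, CRABP1 differed from scramble by -2.35 ± 0.151 (SE) with shRNA1 and by -2.39 ± 0.151 with shRNA2. Taken as the mean of both hairpins, the difference was -2.37 ± 0.131. Both hairpins share the scramble libraries, so their values are not independent. The scramble libraries themselves differed in CRABP1 by 1.39-fold, while the median gene differed by 1.04-fold between them. Against scramble replicate 2 alone the difference was -2.60, and against scramble replicate 1 alone it was -2.14. With the shRNA2 level set against that of shRNA1, CRABP1 differed by -0.04 (95% interval -0.42 to 0.35), which did not pass the test (limma with Benjamini-Hochberg adjustment over all genes tested, adjusted p = 0.926).

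The depth behind CRABP1 is high. About 300.5 and 287.83 reads with shRNA1, 309.17 and 271.5 with shRNA2, and 900.58 and 2069.42 in scramble stand behind its values, from library totals of 82353637 and 78488667 reads with shRNA1, 83629504 and 79949303 with shRNA2, and 46634855 and 77187298 in scramble. These reads were worked back from FPKM with the gene length of GENCODE v29 and are parts of a read in places. In RNA from a whole culture, fewer cells of a type and less RNA per cell cannot be told apart. That holds for every level in these libraries.

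CRABP2, the second cytoplasmic binding protein of retinoic acid, which hands the acid to the nuclear receptors, did not share this difference in size. It stood at 2.21 and 2.26 FPKM with shRNA1, 2.08 and 1.89 FPKM with shRNA2, and 2.05 and 2.19 FPKM in scramble. The knockdown range covered the scramble range. The difference of the knockdown from scramble was -0.01 ± 0.056 (SE), and that of shRNA2 from shRNA1 was -0.11 (95% interval -0.28 to 0.05, limma adjusted p = 0.440). CRABP1 was above CRABP2 in both conditions, with means of 3.63 and 2.11 FPKM in knockdown, and of 23.2 and 2.12 FPKM in scramble.

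**Figure D1:**
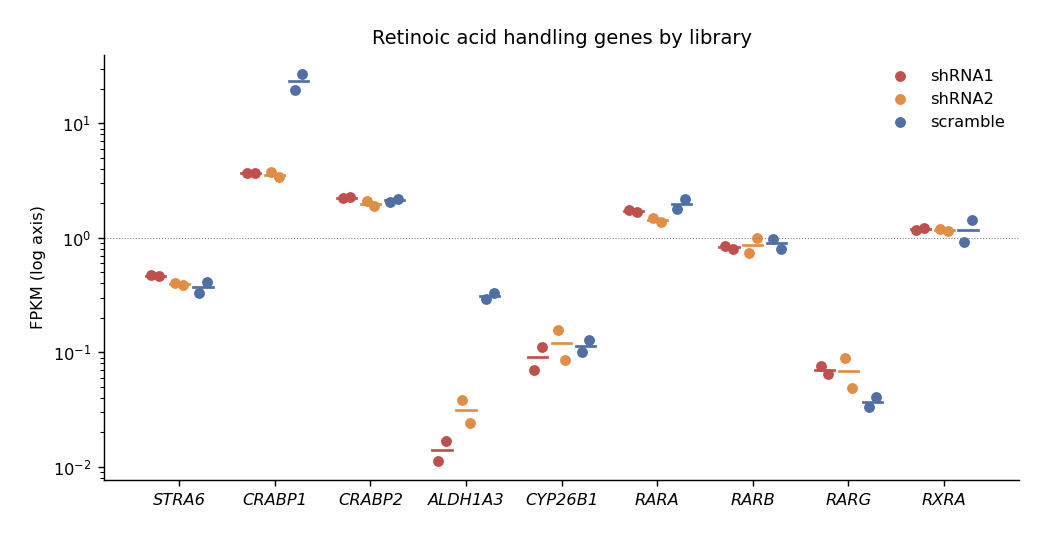
FPKM of the 9 genes (log axis) in each library, with shRNA1, shRNA2 and scramble side by side; points are libraries, short bars group means, and the dotted line is 1 FPKM. CRABP1 and ALDH1A3 are lower in all 4 knockdown libraries, with CRABP1 at 3.42 to 3.72 FPKM there and 19.4 to 27.0 FPKM in scramble.

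ALDH1A3, which makes retinoic acid from retinal and in the mouse embryo acts in the ventral eye and the lateral ganglionic eminence, was the member with the lowest share of its scramble level left. It lies on the same chromosome as CRABP1, at 100879831 to 100916626. Its level was 0.0112 and 0.0169 FPKM with shRNA1, 0.0380 and 0.0242 FPKM with shRNA2, and 0.292 and 0.330 FPKM in scramble. The 3 groups did not overlap, with shRNA1 lowest and scramble highest. Knockdown cells held 7.27% of the scramble mean, 0.0226 ± 0.0116 FPKM (SD, n = 4) against 0.311 ± 0.0266 FPKM in scramble (SD, n = 2).

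The gene is scarce, and its knockdown values rest on few reads. About 5.33 and 7.67 reads were behind the shRNA1 values, 18.33 and 11.17 behind the shRNA2 values, and 78.58 and 146.83 behind the scramble values. A second fit with a lower limit, mean levels from 0.05 FPKM up and a pseudocount of 0.1, was added after the values had been seen so that genes such as this one could be described. In it ALDH1A3 differed from scramble by -1.85 ± 0.178 (SE) with shRNA1 and by -1.65 ± 0.178 with shRNA2. shRNA2 stood 0.20 from shRNA1 (95% interval -0.26 to 0.65, limma adjusted p = 0.722). With a pseudocount of 1 the difference of the knockdown from scramble was -0.36, and with 0.1 it was -1.75 ± 0.155 (SE).

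STRA6, the membrane receptor that takes up retinol from its carrier in blood, was at 0.472 and 0.464 FPKM with shRNA1, 0.406 and 0.388 FPKM with shRNA2, and 0.332 and 0.414 FPKM in scramble. The shRNA1 libraries lay above both scramble libraries and the shRNA2 libraries between them. Its difference from scramble in the lower-limit fit was 0.17 ± 0.136 (SE). shRNA2 differed from shRNA1 by -0.19 (95% interval -0.59 to 0.21, limma adjusted p = 0.693).

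CYP26B1, an enzyme that hydroxylates and so removes retinoic acid, was at 0.0707 and 0.111 FPKM with shRNA1, 0.156 and 0.0850 FPKM with shRNA2, and 0.0999 and 0.128 FPKM in scramble. The groups overlapped, and the spread within each hairpin group exceeded the distance between the groups' means. The difference of the knockdown from scramble was -0.07 ± 0.213 (SE) in the lower-limit fit, and that of shRNA2 from shRNA1 was 0.20 (95% interval -0.43 to 0.82, limma adjusted p = 0.805).

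Among the receptors, RARA was somewhat lower in knockdown libraries. This ligand-activated transcription factor stood at 1.75 and 1.66 FPKM with shRNA1, 1.48 and 1.37 FPKM with shRNA2, and 1.78 and 2.19 FPKM in scramble. No knockdown library reached the level of a scramble library, though shRNA1 replicate 1 lay only just below scramble replicate 1. The difference was -0.14 ± 0.0864 (SE) with shRNA1, -0.30 ± 0.0864 with shRNA2 and -0.22 ± 0.0748 for both hairpins. Without scramble replicate 2 the value for both hairpins was -0.12. shRNA2 differed from shRNA1 by -0.16 (95% interval -0.38 to 0.06, limma adjusted p = 0.428).

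RARG ran the other way, at a level close to the limit of the libraries. It was at 0.0758 and 0.0646 FPKM with shRNA1, 0.0886 and 0.0488 FPKM with shRNA2, and 0.0335 and 0.0404 FPKM in scramble. Each knockdown library lay above both scramble libraries. These values equal about 32.0, 26.0, 38.0 and 20.0 reads in the knockdown libraries and 8.0 and 16.0 in scramble, and the difference of 0.30 ± 0.175 (SE) in the lower-limit fit was less than 2 standard errors from 0. shRNA2 differed from shRNA1 by -0.02 (95% interval -0.54 to 0.49, limma adjusted p = 0.981).

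RARB, a receptor whose own promoter holds the DR5 shown above and which rises when cells receive retinoic acid, did not separate the groups. It was at 0.850 and 0.797 FPKM with shRNA1, 0.742 and 0.995 FPKM with shRNA2, and 0.985 and 0.801 FPKM in scramble. The difference of the knockdown from scramble was -0.07 ± 0.156 (SE) in the lower-limit fit, and that of shRNA2 from shRNA1 was 0.06 (95% interval -0.40 to 0.52, limma adjusted p = 0.931).

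RXRA, the common partner of these receptors, was at 1.16 and 1.22 FPKM with shRNA1, 1.18 and 1.15 FPKM with shRNA2, and 0.918 and 1.42 FPKM in scramble. All 4 knockdown libraries lay between the scramble libraries, which differed from each other by 1.55-fold. The difference of the knockdown from scramble was 0.02 ± 0.105 (SE), and that of shRNA2 from shRNA1 was -0.02 (95% interval -0.32 to 0.29, limma adjusted p = 0.962). Some of these genes overlap others in the annotation, and whether counting used the strand was not stated. Reads of STRA6 and CCDC33, of RARA and RARA-AS1, and of RARB and TOP2B therefore cannot be told apart where they overlap.

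**Figure D2:**
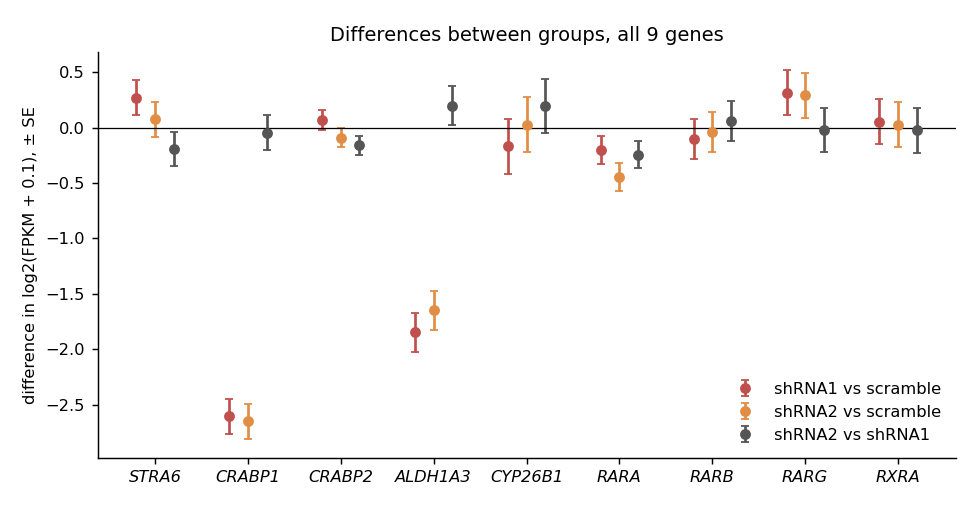
Differences of the 9 genes in log2(FPKM + 0.1), from the lower-limit fit, for shRNA1 against scramble, shRNA2 against scramble and shRNA2 against shRNA1; bars are standard errors. CRABP1 (-2.60 and -2.65) and ALDH1A3 (-1.85 and -1.65) stand apart from 0 against scramble, and between the hairpins the 9 values lie from -0.24 to 0.20.

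Levels of different genes can be set side by side as FPKM, which is per length. In knockdown the order was CRABP1, CRABP2, RARA, RXRA, RARB, STRA6, CYP26B1, RARG and ALDH1A3, and only the ranges of CYP26B1 and RARG overlapped among neighbours. In scramble it was CRABP1, CRABP2, RARA, RXRA, RARB, STRA6, ALDH1A3, CYP26B1 and RARG. There the ranges of CRABP2 and RARA overlapped, and so did those of RXRA and RARB. ALDH1A3 thus had the seventh place in scramble and the last in knockdown.

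The shares of all genes are given as background. Counts of the 9 genes that include CRABP1 are no test, since it was selected on its difference from scramble. No knockdown library reached the level of a scramble library for CRABP1, ALDH1A3 and RARA, 3 of the 9 genes, nor for 9.82% of the 41476 genes whose mean reached 0.05 FPKM. They lay above both for RARG, 1 of the 9, and for 7.78% of those genes. Among the 18162 genes whose mean reached 1 FPKM, which include CRABP1, CRABP2, RARA and RXRA, a limma adjusted p under 0.05 was reached by 0.0826% for the knockdown as a whole, by 0.033% for shRNA1 and by 0.628% for shRNA2. In the lower-limit fit the shares were 0.0482% for the knockdown, 0% for shRNA1 (3487 genes at an unadjusted p under 0.05) and 0.0675% for shRNA2. No count of called genes among the 9 is set against the limma shares, since CRABP1 was selected on the same contrasts.

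Between the hairpins limma called 0 of the 9 genes, and 0% of all genes in either fit. At an unadjusted p under 0.05 it had 2929 of the 18162 genes and 4799 of the 41476 genes, with 0 of the 9 among them. These counts of all genes depended on the scramble libraries. limma called 978 of the 18162 genes without scramble replicate 1, 1029 without scramble replicate 2 and 957 with only the hairpin libraries fitted, with 0 of CRABP1, CRABP2, RARA and RXRA each time. The intervals leave room for differences between hairpins of up to 0.42 for CRABP1, 0.65 for ALDH1A3 and 0.82 for CYP26B1 on their log2 scales, so the hairpins are not shown to act alike on them.

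The rest of the pathway was read from 11 lists of 81 genes, of which 77 were found. The levels of RDH8, HOXA4, PLAAT4 and CDX1 were not analysed here. Besides the 9 genes, 23 averaged 1 FPKM or more. Of these 23, limma called 1 lower and 0 higher in the knockdown as a whole (all genes tested, 0.0826% called). It called 0 with shRNA1 (5 at an unadjusted p under 0.05, all genes 0.033% called), and 3 lower and 0 higher with shRNA2 (all genes 0.628% called). The median difference of the 23 was -0.07 for the knockdown (all genes tested -0.03), -0.04 for shRNA1 (all genes -0.003) and -0.13 for shRNA2 (all genes -0.06). Between the hairpins 0 of the 23 were called, with 4 at an unadjusted p under 0.05 and a median of -0.11 (all genes -0.06). With replicate number in the fit limma called 0 of the 23 in the knockdown and 0 with shRNA2, and 1 and 0 of all 18162 genes. The calls in both contrasts were also lost without any 1 hairpin library, as were nearly all calls over all genes. In the knockdown the same held without scramble replicate 2. With only the hairpin libraries fitted, limma called 4 of the 23 between the hairpins, FABP5, MEIS1, MEIS2 and NR2F1, and 957 of all 18162 genes.

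With all 6 libraries fitted, the pathway genes called against scramble were all from the list that retinoic acid induces in other cells. That list, like the others, was chosen with earlier results of these data known, so this is no test of it. NR2F1, an orphan nuclear receptor (COUP-TF1) that patterns the cortex, was at 2.63 and 2.57 FPKM with shRNA1, 1.72 and 1.61 FPKM with shRNA2, and 4.52 and 4.84 FPKM in scramble. The 3 groups did not overlap, with shRNA2 lowest. NR2F1 fell by 0.87 ± 0.0523 (SE) in the knockdown (limma adjusted p = 0.0252) and by 1.09 ± 0.0603 with shRNA2 (adjusted p = 0.0182), while the value of -0.66 with shRNA1 did not pass (adjusted p = 0.127).

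Its paralog NR2F2 was at 0.923 and 0.960 FPKM with shRNA1, 0.776 and 0.687 FPKM with shRNA2, and 2.37 and 2.07 FPKM in scramble. It fell by 0.89 ± 0.0762 with shRNA2 (limma adjusted p = 0.0358), and the knockdown as a whole gave -0.81 (adjusted p = 0.0526). MEIS1, a homeobox partner of HOX proteins, was at 3.44 and 3.57 FPKM with shRNA1, 2.62 and 2.58 FPKM with shRNA2, and 4.68 and 4.62 FPKM in scramble. It fell by 0.65 ± 0.0513 with shRNA2 (adjusted p = 0.0353), against -0.49 for the knockdown (adjusted p = 0.0580) and -0.33 with shRNA1 (adjusted p = 0.281).

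In the same shRNA2 libraries the summed pluripotency markers were at 179% and 181% of the scramble mean, where shRNA1 was at 111% in both, and Cajal-Retzius markers at 73.5% and 75.8%, where shRNA1 was at 107% in both. The part of these markers in the shRNA2 values of NR2F1, NR2F2 and MEIS1 was not tested.

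Those 3 genes do not stand for the whole list of induced genes. MEIS2, its most abundant member and the paralog of MEIS1, was at 27.1 and 27.2 FPKM with shRNA1, 21.8 and 21.7 FPKM with shRNA2, and 29.2 and 27.6 FPKM in scramble, and its difference of -0.37 with shRNA2 did not pass (limma adjusted p = 0.0630). RAI14 differed by 0.02 in the knockdown (adjusted p = 0.911). CYP26A1, whose promoter holds the other DR5 and which is the most abundant hydroxylase apart from the 9 genes, was at 0.159 and 0.255 FPKM with shRNA1, 0.169 and 0.0842 FPKM with shRNA2, and 0.152 and 0.126 FPKM in scramble, so its groups overlapped. Several HOX genes of the list were near 0. HOXB1 and HOXB4 stayed under 0.05 FPKM in every library, and HOXB2 was at 0.0147 to 0.0249 FPKM in knockdown and 0.103 to 0.110 FPKM in scramble. RET, a receptor of glial cell line-derived neurotrophic factor, was at 0.783 to 0.866 FPKM in knockdown and 0.451 to 0.522 FPKM in scramble, which did not pass in the lower-limit fit (0.66, adjusted p = 0.191).

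Along the way from retinol to retinoic acid the same order of libraries was seen in several genes without a call. RDH10, the retinol dehydrogenase that makes retinal in the embryo, was at 2.07 and 1.87 FPKM with shRNA1, 1.88 and 1.78 FPKM with shRNA2, and 2.75 FPKM in both scramble libraries. The difference for the knockdown was -0.37 ± 0.0545 (SE, limma adjusted p = 0.115). ALDH1A1, a second retinal dehydrogenase, was at 0.0312 and 0.0533 FPKM with shRNA1, 0.138 and 0.0925 FPKM with shRNA2, and 0.241 and 0.275 FPKM in scramble, with -1.04 ± 0.178 in the lower-limit fit (adjusted p = 0.190). DHRS3, which turns retinal back into retinol, was at 0.0573 to 0.0841 FPKM in knockdown and 0.166 to 0.193 FPKM in scramble, with -0.71 ± 0.148 (adjusted p = 0.242).

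In all, 6 of the 16 oxidoreductases found, RDH10 and DHRS3 among them, were lower in each knockdown library than in either scramble library. So were 9.82% of all genes averaging 0.05 FPKM or more, a level that only 11 of the 16 reached. Of the 4 retinal dehydrogenases 2, ALDH1A1 and ALDH1A3, were lower in the same way. ALDH1A3 is counted there although it is one of the 9 chosen genes. ALDH8A1, the most abundant of that last list, was at 0.539 to 0.617 FPKM in knockdown and 0.562 to 0.598 FPKM in scramble. ADH5, an alcohol dehydrogenase found in every tissue and the most abundant oxidoreductase, differed by -0.07 in the knockdown (limma adjusted p = 0.538).

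Carriers, storage enzymes, coregulators and other partners of RXR gave no call in any of the 4 contrasts. DGAT1, which can esterify retinol, differed by 0.01 (limma adjusted p = 0.987), and BCO1, which cleaves carotene, overlapped between groups at 0.185 to 0.367 FPKM in knockdown and 0.223 to 0.249 FPKM in scramble. LRAT, the main retinol esterifying enzyme, was at 0.225 to 0.280 FPKM in knockdown and 0.153 to 0.159 FPKM in scramble, without passing (0.45, adjusted p = 0.341).

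FABP5, a fatty acid carrier that also binds retinoic acid, was at 5.35 and 4.98 FPKM with shRNA1, 3.56 and 3.64 FPKM with shRNA2, and 5.12 and 5.94 FPKM in scramble. Its difference of -0.50 with shRNA2 did not pass (limma adjusted p = 0.0756). NRIP1, a corepressor of nuclear receptors and the most abundant coregulator, differed by -0.17 (adjusted p = 0.335), THRA, the alpha receptor of thyroid hormone, by 0.02 (adjusted p = 0.965), and RXRB by -0.07 in the lower-limit fit (adjusted p = 0.881).

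**Figure D3:**
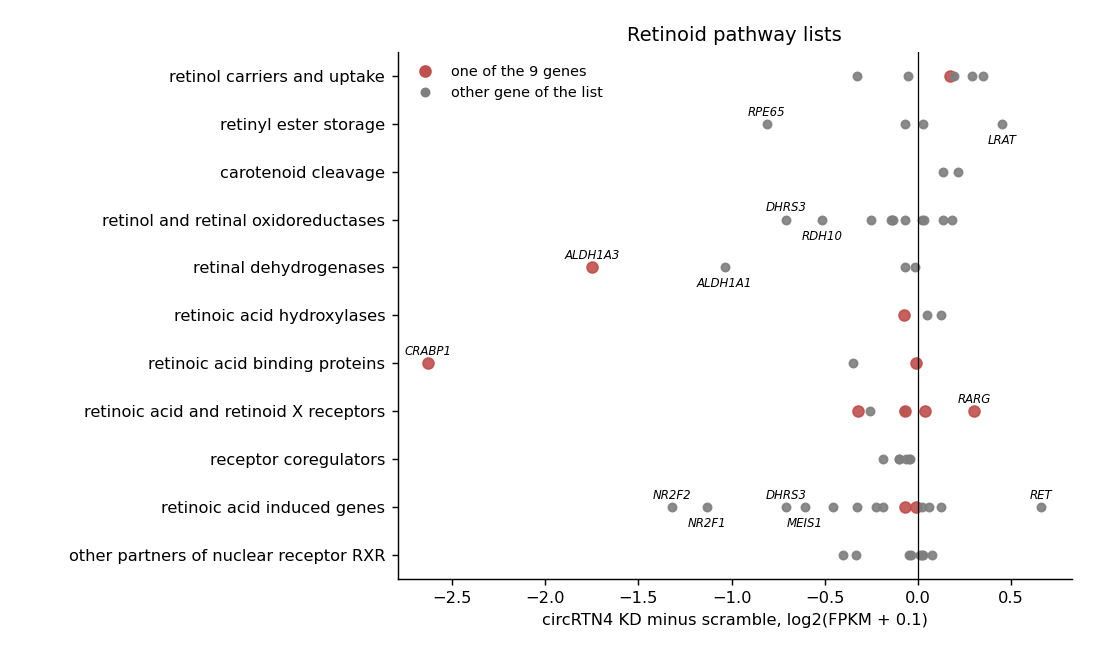
Difference of circRTN4 knockdown (mean of both hairpins) from scramble in log2(FPKM + 0.1) for every gene of the 11 retinoid lists that averaged 0.05 FPKM or more; red points are among the 9 genes, grey points are other genes, and some are named. CRABP1 (-2.63) and ALDH1A3 (-1.75) lie farthest to the left, and NR2F1 is the called grey gene, at -1.13.

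The genes whose levels over the 6 libraries were most like those of CRABP1 were taken from 25 protein-coding genes that averaged 1 FPKM or more and varied by at least 1 on the log2 scale. With Pearson's r over 6 libraries, which fall into a low and a high cluster, so that r describes mainly that split, the 10 nearest were RSPO2 (0.985), TTR (0.974), COL3A1 (0.971), SULF1 (0.970), PLS3 (0.965), WLS (0.952), GJA1 (0.929), NR2F1 (0.923), TRH (0.904) and WNT8B (0.849). They share libraries and depth with CRABP1. RSPO2, a secreted amplifier of Wnt signals, was at 17.3% to 28.6% of its scramble mean in knockdown libraries, where CRABP1 was at 14.7% to 16.0%. TTR, the thyroxine carrier of the choroid plexus, was at 7.85% and 12.4% with shRNA1 and 0.912% and 0.999% with shRNA2.

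**Figure D4:**
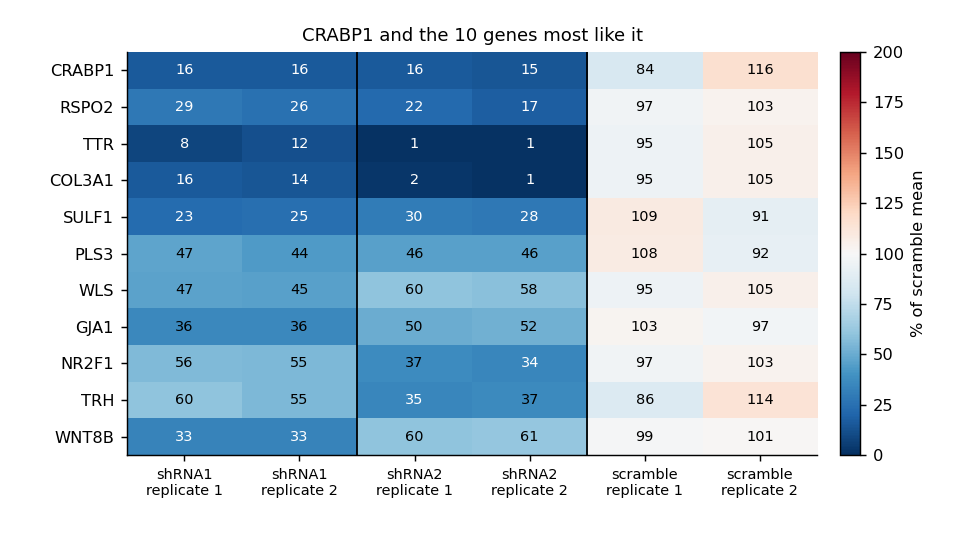
Level in each library as a percentage of the scramble mean, for CRABP1 and the 10 genes most like it, with shRNA1 and shRNA2 left of scramble. CRABP1 is at 14.7% to 16.0% in the 4 knockdown libraries, and WNT8B and WLS keep larger shares.

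Of the genes near CRABP1 on the chromosome, the better expressed ones kept levels close to those in scramble. IREB2, 89206 bases away, was at 7.93 and 8.30 FPKM with shRNA1, 7.45 and 7.27 FPKM with shRNA2, and 7.95 and 7.42 FPKM in scramble. PSMA4 was at 6.0 to 6.27 FPKM in knockdown and 6.81 to 6.87 FPKM in scramble, so lower in every knockdown library. So was HYKK, a scarce gene 159352 bases away, at 0.0393 to 0.0540 FPKM in knockdown and 0.0859 to 0.0870 FPKM in scramble. LRRK1, 2731 bases from ALDH1A3, was at 0.0574 to 0.0852 FPKM in knockdown and 0.0613 to 0.0648 FPKM in scramble.

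Summed markers of several other cell types were also lower in knockdown libraries. The summed level of 10 eye field and retina markers was 0.854 to 1.14 FPKM in knockdown and 3.41 to 4.02 FPKM in scramble, with 6 of 10 lower in every knockdown library (all genes averaging 0.05 FPKM or more, 9.82%) and PAX2 and CRX under 0.05 FPKM in all libraries. Of the 8 in the lower-limit fit, limma called 1 lower in the knockdown, 0 with shRNA1 and 1 lower with shRNA2. Over all genes in that fit the shares called were 0.0482%, 0% and 0.0675%. RAX, an eye field factor, was at 0 to 0.0161 FPKM in knockdown and 0.391 to 0.640 FPKM in scramble, without passing in the lower-limit fit (-2.48, limma adjusted p = 0.0696).

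The sum of 12 meninges and fibroblast markers was 0.830 to 1.75 FPKM in knockdown and 6.32 to 7.0 FPKM in scramble. Of the 12, 9 were lower in every knockdown library, and TBX18 was under 0.05 FPKM throughout. Beside this and the counts below, 9.82% of all genes averaging 0.05 FPKM or more were lower in the same way. PTPRC, counted below with the blood markers, does not reach that average. COL3A1, the only 1 of the 12 averaging 1 FPKM or more, was at 0.0459 to 0.538 FPKM in knockdown and 3.16 to 3.49 FPKM in scramble. The sum of 14 cortical hem and choroid plexus markers was 18.7 to 23.0 FPKM in knockdown and 34.6 to 37.4 FPKM in scramble, with 9 of 14 lower. Of the 6 averaging 1 FPKM or more, limma called 3 lower in the knockdown, 3 with shRNA1 and 4 with shRNA2. Over all genes tested 0.0826%, 0.033% and 0.628% were called. The lower-limit fit called 3 of 13 lower in the knockdown, 0 with shRNA1 and 2 with shRNA2. Its shares over all genes were 0.0482%, 0% and 0.0675%. Hindbrain and spinal cord markers summed to 0.239 to 0.418 FPKM in knockdown and 0.542 to 0.583 FPKM in scramble, with 7 of the 11 found under 0.05 FPKM everywhere. Astrocyte markers summed to 9.54 to 10.2 FPKM in knockdown and 16.8 to 18.3 FPKM in scramble, with 2 of 6 lower in every knockdown library. GJA1, 1 of these 2 and in scramble most of the sum, was at 3.86 to 5.59 FPKM in knockdown and 10.4 to 11.1 FPKM in scramble. The other 4 astrocyte markers overlapped between knockdown and scramble. Endothelial and blood markers summed to 0.111 to 0.139 FPKM in knockdown and 0.301 to 0.325 FPKM in scramble. Of those, 3 of 6 were lower, and 4 of 6 were under 0.05 FPKM everywhere. Surface epithelium markers summed to 1.49 to 2.25 FPKM in knockdown and 2.74 to 3.22 FPKM in scramble, with 3 of the 6 found lower. Among markers averaging 1 FPKM or more, COL3A1 (1 of 1 meninges marker) and GJA1 (1 of 2 astrocyte markers) were called lower in the knockdown and with each hairpin. With replicate number in the fit, limma called 1 of all 18162 genes in the knockdown and 0 with each hairpin. The marker lists were chosen with earlier results of these data known, so these calls are no test of them. The part of these cell types in the levels of CRABP1 and ALDH1A3 was not tested.

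Markers of the labelled cell type were present in all libraries. Forebrain progenitor markers summed to 246 to 259 FPKM in knockdown and 255 to 272 FPKM in scramble. Of the 12, 4 (PAX6, EMX2, VIM and HES1) were lower in every knockdown library (all genes averaging 0.05 FPKM or more, 9.82%). PAX6 differed by -0.34 and VIM by -0.33 in the knockdown, which did not pass (limma adjusted p = 0.115 and 0.132). Pan-neuronal markers summed to 324 to 379 FPKM in knockdown and 359 to 363 FPKM in scramble. Pluripotency markers summed to 13.4 and 13.5 FPKM with shRNA1, 22.0 and 21.7 FPKM with shRNA2, and 11.99 and 12.3 FPKM in scramble, with POU5F1 and ZFP42 under 0.05 FPKM in every library. Of their 4 genes tested, LIN28A, DPPA4 and SALL4 rose with shRNA2, by 1.05, 0.87 and 0.54 (limma adjusted p = 0.0244, 0.0353 and 0.0486). Of all genes tested, 0.628% were called in that contrast. Cajal-Retzius markers summed to 12.3 and 12.4 FPKM with shRNA1, 8.72 and 8.45 FPKM with shRNA2, and 11.4 and 11.6 FPKM in scramble, so shRNA1 was above scramble and shRNA2 below it. RELN, the reelin gene and the 1 tested marker of that list, fell by 0.39 with shRNA2 (adjusted p = 0.0499), and its 0.19 with shRNA1 did not pass (adjusted p = 0.379). These shRNA2 calls depended on the setting. The lower-limit fit called 1 of 5 pluripotency genes and 0 of 7 Cajal-Retzius genes with shRNA2, beside 0.0675% of all genes. Over all 18162 genes limma called 0 with replicate number in the fit, and 1 with only shRNA2 and scramble fitted. Neural crest markers summed to 2.07 to 2.73 FPKM in knockdown and 2.05 to 2.16 FPKM in scramble, and ventral forebrain and interneuron markers to 93.9 to 116 FPKM in knockdown and 105 to 119.5 FPKM in scramble.

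**Figure D5:**
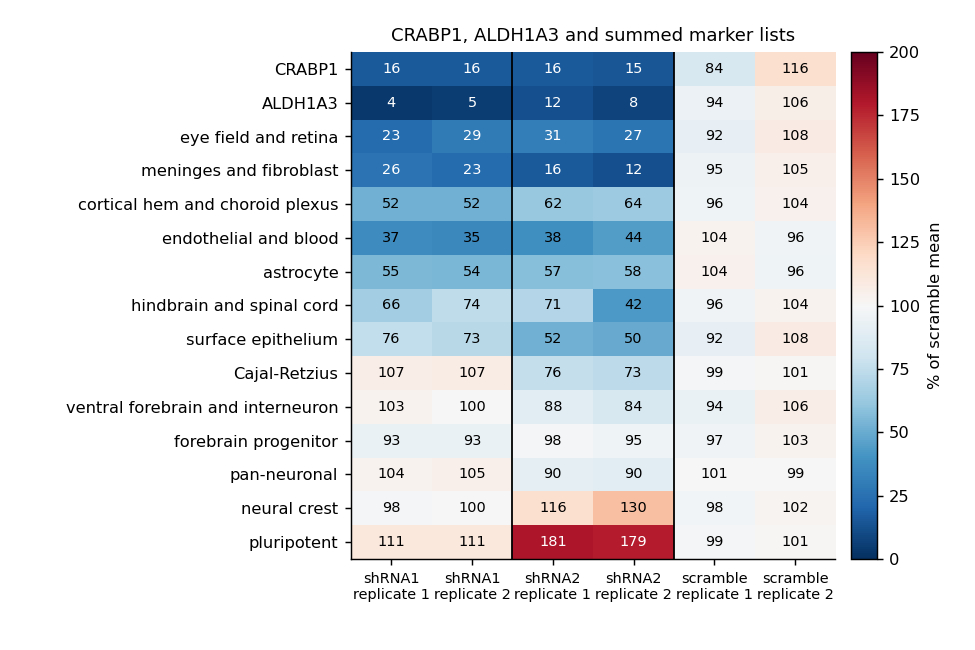
Level in each library as a percentage of the scramble mean for CRABP1, ALDH1A3 and the summed FPKM of 13 marker lists, with shRNA1 and shRNA2 left of scramble. ALDH1A3 (3.61% to 12.2%) and CRABP1 (14.7% to 16.0%) are low beside the eye field (23.0% to 30.8%) and meninges (12.5% to 26.2%) lists in knockdown libraries. The sum of the forebrain progenitor markers is at 93.2% to 98.3%.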

How the data were processed

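Total RNA of H9-derived cells was profiled in 6 libraries. Per the file headers, the authors deposited FPKM, 1 value for each symbol in each library. The submitters' processing notes name featureCounts 2.0.1, SAMtools 1.9, HISAT2 2.1.0 and Trimmomatic 0.39, and human build GRCh38. Annotation, strandedness and handling of multiply matching reads: not given in the sources used here. Values of near-identical or overlapping genes are therefore uncertain. FPKM values were used without further scaling, as log2(FPKM + 1), for 18162 genes averaging 1 FPKM or more. This scale understates the change of low genes. All 3 groups entered 1 fit of limma 3.58.1 (R 4.3.3), with a mean-variance trend, two-sided tests, Benjamini-Hochberg adjustment over all genes tested and a threshold of 0.05. The knockdown contrast is the mean of both hairpins against scramble. A fit from a mean of 0.05 FPKM up, with a pseudocount of 0.1 (41476 genes) was added after the values were seen, to hold all 9 genes. Both fits were tested on simulated data in which a gene had the same spread in every group. The measured spreads differed between groups, as given below, so that test does not cover this difference. The 9 genes and all gene lists were chosen with earlier results of these data known. Named were the 9 genes, each called list gene, the most abundant gene of each list besides the 9, and the 10 genes most like CRABP1; others were named after their values were seen. Some genes of the lists are not reported here. Library totals were recovered from the steps of low FPKM values, within 0.022 of whole numbers, and ranged from 46634855 reads (scramble replicate 1) to 83629504. Reads behind a gene assume its GENCODE v29 exon length, which gave hundredths of a read for 2 of the 9 genes, CRABP1 and ALDH1A3, so the reads of RARG are estimates. 1 read on a gene of 1 kb equals 0.0120 to 0.0214 FPKM, which covers counting error only. Replicates differed least with shRNA1 (median SD of log2 values 0.0355), then shRNA2 (0.0452) and scramble (0.109). Figures and motif searches used Python 3.11.15.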

Additional observations from a re-analysis of the deposited data

How the results depend on the processing

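CRABP1 was lower than scramble under every alternative run. With a pseudocount of 0.1, with either limit on low values, its difference was -2.63 for the knockdown, -2.60 for shRNA1 and -2.65 for shRNA2. Leaving out 1 library at a time gave -2.60 to -2.14, -2.58 to -2.13 and -2.62 to -2.16 for the same contrasts.

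The count of other retinoid genes called, 1 in the knockdown and 3 with shRNA2, depended on the setting. In the knockdown it was 0 with no filter, at 5 FPKM and with the replicate block, 2 with median of ratios, quantile normalization or no trend, and 0 to 3 without 1 library. With shRNA2 it was 0 with no filter, the replicate block or only the groups compared, 1 at 5 FPKM and in the lower-limit fit, and 0 to 7 without 1 library, with 7 without scramble replicate 1, 5 without scramble replicate 2 and 0 without any 1 hairpin library. Between the hairpins it was 0, but 4 without either scramble library or with only the hairpin libraries fitted (FABP5, MEIS1, MEIS2 and NR2F1, where 957 of 18162 genes were called), and so 0 to 4 without 1 library. The cause was not tested.

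Differences of shRNA2 from shRNA1 near 0 changed sign. CRABP1 was 0.0301 with median of ratios and 0.0232 with quantile normalization, RXRA 0.0302 and 0.00248, and RARG 0.00282 with median of ratios. Without 1 library the ranges were -0.0837 to 0.0120 for CRABP1, -0.0328 to 0.00193 for RXRA, -0.19 to 0.15 for RARG, -0.0380 to 0.43 for CYP26B1 and -0.13 to 0.25 for RARB.

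The replicate numbers did not pair the libraries: deviations of same-numbered libraries correlated by -0.00768, -0.150 and 0.0122. Only 2 libraries a group, the shallow scramble replicate 1 and the few reads of ALDH1A3 and RARG limit these values.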
